A study of Mus musculus with 2 samples.

Results

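Efferocytosis, the engulfment of apoptotic cells, is carried out by receptors that recognize phosphatidylserine on the dying cell, either directly or through soluble bridging proteins. The 7 genes described here encode receptors and bridging proteins of this process. *Mertk* and *Axl* encode receptor tyrosine kinases of the TYRO3-AXL-MERTK family, *Timd4* and *Stab1* encode receptors that bind phosphatidylserine themselves, and *Gas6*, *Pros1* and *Mfge8* encode bridging proteins. They were chosen by gene name, not by a threshold on a measured value, and all 7 were found among the 32285 genes of the count tables. Their levels were described in the cell classes of subcutaneous tumors of MC38, a colon carcinoma line derived from C57BL/6 mice, in 2 single-cell RNA sequencing libraries of FACS-sorted live cells.

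One library came from tumors of wild-type (*Lmo7*+/+) C57BL/6 mice and the other from tumors of mice with a whole-body knockout of *Lmo7* (*Lmo7*-/-) on the same background. The hosts of subcutaneous MC38 tumors were young adult females, per the study's methods. *Lmo7* encodes a LIM domain protein with E3 ubiquitin ligase activity. The implanted MC38 cells were not deleted for *Lmo7* in either group, so the genotype was that of the host. The number of mice behind each library and the part of the gene that was deleted are not given in the sources used here. With 1 library per genotype no test between genotypes was possible, and each difference below is a difference between 2 libraries. Intervals cover counting error only.

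Apoptotic cells expose phosphatidylserine on the outer leaflet of the plasma membrane, where it serves as an eat-me signal. GAS6 and protein S (PROS1) bind it with their Gla domains and activate the TAM receptor kinases, GAS6 each of them and PROS1 mainly MERTK and TYRO3. MFGE8 links phosphatidylserine to the integrins αvβ3 and αvβ5 on the phagocyte. TIM-4, the product of *Timd4*, is known from resident macrophages and some dendritic cells, and stabilin-1, the product of *Stab1*, from sinusoidal endothelium and tissue macrophages. MERTK and AXL also dampen inflammatory signaling in macrophages and dendritic cells, and both are studied as targets in tumor immunity.

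The libraries held 16208 (*Lmo7*+/+) and 15163 (*Lmo7*-/-) droplets, of which 13542 and 11860 cells were kept. Cells were gated by the number of lineage markers with a UMI, the molecular tag that marks 1 captured RNA. The gates gave 3285 and 3724 macrophage-gated cells, 646 and 559 M-MDSC-gated (monocytic) cells, 143 and 106 type 1 dendritic cells, 415 and 610 T cells, 56 and 38 NK cells, 79 and 70 fibroblasts, 70 and 50 endothelial cells, and 5311 and 3922 tumor cells. All fixed markers of the host classes listed here reached 5 CPM (counts per 1e+06 UMIs) in both libraries. Cells were gated by these same markers, so this is not an independent check of identity. Of the 27 tumor cell markers 14 and 13 reached 5 CPM, and *Krt7*, *Krt6a*, *Cldn4* and *Cldn7* had no UMI in the tumor cells of the *Lmo7*-/- library. *Lmo7* itself was at 0.818 and 0.814 CPM in macrophage-gated cells (15 UMIs in each library), at 19.7 and 15.7 CPM in tumor cells and at 47.3 and 35.8 CPM in endothelial cells (16 and 9 UMIs). The log2 ratio of *Lmo7* had an interval that included 0 in macrophage-gated and endothelial cells and was -0.33 (-0.48 to -0.18) in tumor cells, which were not deleted for it. Since 3′ counts need not fall when the deleted part lies elsewhere, the label was not checked by these counts, and the second library is called the library labelled *Lmo7*-/-. The libraries shared 279 barcodes, of which 175 passed the filters in both.

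In the annotation (GENCODE M21, build GRCm38, the same sequence as mm10), *Mertk* lies on chr2:128698956-128802894 on the plus strand with 19 exons in its principal transcript, and *Axl* on chr7:25757273-25788705 on the minus strand with 20 exons. *Gas6* is on chr8:13465374-13494490 (minus strand, 15 exons), *Pros1* on chr16:62854307-62929346 (plus strand, 15 exons) and *Mfge8* on chr7:79133768-79149060 (minus strand, 10 exons). *Timd4* spans chr11:46810800-46844332 (plus strand, 9 exons) and *Stab1* spans chr14:31139013-31168641 (minus strand, 69 exons). Exons of *Gas6* overlap those of *Tmem255b* on the opposite strand, and exons of *Stab1* those of *Nt5dc2*. *Tmem255b* had no UMI in macrophage-gated cells of either library and 1 and 0 UMIs in fibroblasts. *Nt5dc2* was at 65.2 and 40.3 CPM in macrophage-gated cells and at 44.4 and 51.7 CPM in endothelial cells. It was at 216 and 206 CPM in tumor cells and at 138 and 64.9 CPM in fibroblasts, where *Stab1* was far lower (18.3 and 20.5 CPM in tumor cells). The part of this overlap in the *Stab1* counts was not tested. Whether strand was used in counting is not given in the sources used here.

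The sequence upstream of the start site is shown for 4 genes whose highest class differed (macrophages for *Mertk*, fibroblasts for *Gas6*, type 1 dendritic cells for *Timd4* and endothelium for *Stab1*), as the 250 bases before the RefSeq start (GRCm38.p6), 5′ to 3′ on the gene's strand. Capitals mark the GC box (GGGCGG) or the PU.1 core (GAGGAA) on either strand. PU.1 is the lineage factor of myeloid cells, and the GC box is bound by SP1-type factors. The windows are chr2:128698665-128698914 for *Mertk*, chr8:13494536-13494785 for *Gas6*, chr11:46810549-46810798 for *Timd4* and chr14:31168642-31168891 for *Stab1*.
Mertk: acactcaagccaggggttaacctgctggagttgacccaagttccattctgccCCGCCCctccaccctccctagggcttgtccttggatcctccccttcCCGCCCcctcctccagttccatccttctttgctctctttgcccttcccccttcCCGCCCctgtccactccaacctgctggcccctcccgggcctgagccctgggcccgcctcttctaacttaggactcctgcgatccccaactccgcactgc
Gas6: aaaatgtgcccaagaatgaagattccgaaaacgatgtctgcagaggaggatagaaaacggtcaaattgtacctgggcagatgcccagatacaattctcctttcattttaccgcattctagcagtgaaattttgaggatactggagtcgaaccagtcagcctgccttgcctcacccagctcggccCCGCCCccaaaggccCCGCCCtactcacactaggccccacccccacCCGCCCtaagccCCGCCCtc
Timd4: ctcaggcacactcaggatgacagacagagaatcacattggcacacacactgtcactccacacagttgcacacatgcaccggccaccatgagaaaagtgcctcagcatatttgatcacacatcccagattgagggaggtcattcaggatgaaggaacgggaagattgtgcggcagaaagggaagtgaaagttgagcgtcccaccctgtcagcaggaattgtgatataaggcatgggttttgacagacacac
Stab1: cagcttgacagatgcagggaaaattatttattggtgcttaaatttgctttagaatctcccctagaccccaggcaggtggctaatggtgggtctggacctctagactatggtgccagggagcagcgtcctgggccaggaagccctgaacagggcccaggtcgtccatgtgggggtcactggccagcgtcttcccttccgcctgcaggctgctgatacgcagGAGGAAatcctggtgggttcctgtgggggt
The *Mertk* window held 3 GC boxes and the *Gas6* window 4, all within the last 66 bases for *Gas6*, while *Timd4* and *Stab1* held none. *Stab1* held a PU.1 core 30 bases before the start. Over all 7 genes, 5 windows held a GC box, against 32.7% of 32851 promoters of the same length, and 3 held a PU.1 core (*Axl*, *Mfge8* and *Stab1*), against 23.3%. The 5 windows with a GC box were 54.8% to 65.2% G or C, and those of *Timd4* and *Stab1* 50% and 57.2%, against a median of 52.4% over all promoters. An AP-1 site (TGANTCA, found in 6.75% of promoters), an interferon-response element (2.98%) and a TATA box (TATAAA, 12.4%) were in none of the 7 windows. A match of letters is not a bound site.

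Each receptor and bridging protein had its own distribution over the cell classes, and among the 8 main classes the one with the highest level was the same in both libraries for all 7. Macrophage-gated cells had the highest levels of *Mertk* and *Axl*, fibroblasts of *Gas6* and *Pros1*, endothelial cells of *Mfge8* and *Stab1*, and type 1 dendritic cells of *Timd4*. With Louvain clusters in place of gates, 2 of these ranks changed in the *Lmo7*+/+ library, where *Mfge8* was highest in fibroblasts (247 CPM, at resolutions 0.5 and 1.0) and *Axl* in M-MDSC cells (438 CPM, at 0.5). At resolution 0.5 no cluster was named type 1 dendritic, so the rank of *Timd4* could not be compared. Levels are CPM of UMIs summed over the cells of a class. They are compared between classes within a gene and not between genes.

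**Figure D1:**
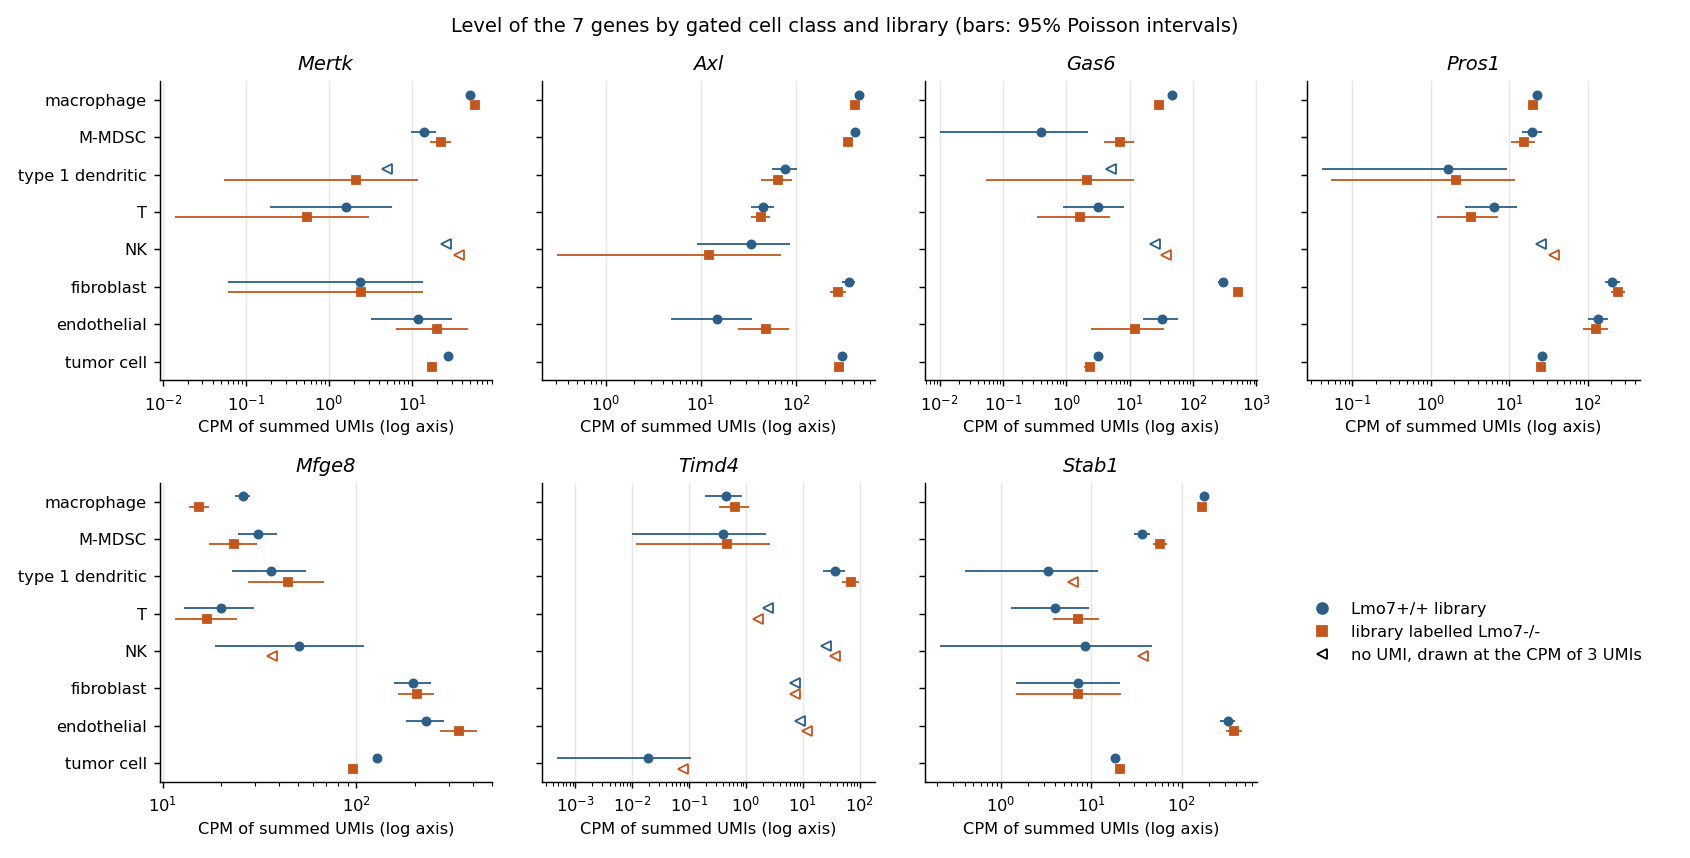
Level of each gene (CPM of summed UMIs, log axis) in 8 gated cell classes, with a circle for the Lmo7+/+ library, a square for the library labelled Lmo7-/- and bars for 95% Poisson intervals. Triangles stand for classes without a UMI, drawn at the level of 3 UMIs. Gas6 peaked in fibroblasts at 294 and 520 CPM, Timd4 in type 1 dendritic cells at 36.5 and 70.0 CPM, and Mertk in macrophage-gated cells at 49.4 and 56.4 CPM.

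*Mertk*, the receptor most closely tied to efferocytosis by macrophages, was at 49.4 CPM (95% interval 46.3 to 52.7, 906 UMIs) in macrophage-gated cells of the *Lmo7*+/+ library and at 56.4 CPM (53.0 to 59.9, 1039 UMIs) in those of the library labelled *Lmo7*-/-. Tumor cells came next, at 26.7 and 17.3 CPM, and M-MDSC-gated cells were at 13.9 and 22.4 CPM. Over both libraries macrophage-gated cells were 2.33-fold above tumor cells, and the values of tumor cells and M-MDSC-gated cells overlapped between libraries. T cells gave 2 and 1 *Mertk* UMIs and fibroblasts 1 each. The tumor cell level was 54.0% and 30.6% of the macrophage level, whereas *C1qb*, a complement gene of macrophages, was in tumor cells at 0.666% and 0.530% of its macrophage level. The 2 genes were thus not in one ratio in macrophages and tumor cells.

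*Axl* was found at high levels in 4 classes, myeloid and non-myeloid. It was at 451 and 411 CPM in macrophage-gated cells, 409 and 349 CPM in M-MDSC-gated cells, 356 and 277 CPM in fibroblasts and 301 and 282 CPM in tumor cells. The values of M-MDSC-gated cells, fibroblasts and tumor cells overlapped with their neighbours in this order, and a step of 4.15-fold separated tumor cells from type 1 dendritic cells (76.3 and 63.6 CPM). T cells were at 44.8 and 42.7 CPM. *Tyro3*, the third TAM receptor, was nearly absent from macrophage-gated cells (7 and 5 UMIs) and was at 12.2 and 11.2 CPM in tumor cells (639 and 431 UMIs).

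*Stab1* was shared by endothelium and macrophages. Endothelial cells were at 319 and 378 CPM (108 and 95 UMIs) and macrophage-gated cells at 177 and 168 CPM (3252 and 3096 UMIs), a ratio of 1.99 over both libraries. M-MDSC-gated cells followed at 36.6 and 57.3 CPM and tumor cells at 18.3 and 20.5 CPM. The libraries did not overlap across any of these steps. Its paralog *Stab2* had 1 and 3 UMIs in macrophage-gated cells and 1 and 0 in endothelial cells.

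*Timd4* UMIs were few and were mostly in dendritic cells. Type 1 dendritic cells held 22 and 33 UMIs (36.5 and 70.0 CPM), in 11 of 143 and 15 of 106 cells. Macrophage-gated cells held 8 and 12 UMIs in 7 and 9 cells (0.436 and 0.651 CPM), so the dendritic level was 94.1-fold above that of macrophages over both libraries. T cells, NK cells, fibroblasts and endothelial cells had no *Timd4* UMI. In T cells this allows levels of up to 2.40 and 1.64 CPM by a limit of 3 UMIs. By the upper end of the exact Poisson interval these limits are 2.95 and 2.02 CPM.

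Among the bridging proteins, *Gas6* was highest in fibroblasts. These were at 294 CPM (244 to 350, 123 UMIs) in the *Lmo7*+/+ library and at 520 CPM (453 to 594, 216 UMIs) in the library labelled *Lmo7*-/-. Macrophage-gated cells were at 46.6 and 29.5 CPM, and endothelial cells at 32.5 and 11.9 CPM from 11 and 3 UMIs. The fibroblast level was 630% of the macrophage level in the *Lmo7*+/+ library and 1763% in the other, and 10.7-fold above it over both libraries. Tumor cells (3.14 and 2.34 CPM) and T cells (3.20 and 1.64 CPM) had *Gas6* at levels that overlapped.

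The *Gas6* UMIs of fibroblasts were concentrated in few cells. In the *Lmo7*+/+ library 23 of 79 fibroblasts held all of them, with 33 in a single cell, and in the library labelled *Lmo7*-/- 32 of 70 did, with 36 in a single cell. The 10 cells with the most *Gas6* held 89.4% and 72.2% of its UMIs. Among macrophage-gated cells the 10 highest held 7.72% and 10.9%.

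*Pros1* was highest in the stroma, at 205 and 243 CPM in fibroblasts and 136 and 127 CPM in endothelial cells. Tumor cells (26.5 and 25.4 CPM), macrophage-gated cells (411 and 369 UMIs, a log2 ratio of -0.16) and M-MDSC-gated cells (19.5 and 15.4 CPM) followed, with a step of 5.08-fold between endothelial and tumor cells. T cells were at 6.40 and 3.29 CPM. Across the 16 profiles of class and library, *Pros1* had a Pearson r of 0.81 with *Gas6* and 0.82 with *Mfge8*, on log2(CPM + 10), whereas *Mertk* had an r of 0.60 with *Axl* and 0.77 with *Stab1*. Profiles of a library share its depth and its free RNA, so these values only describe.

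*Mfge8* was highest in endothelial cells (228 and 338 CPM) and fibroblasts (196 and 204 CPM), followed by tumor cells (127 and 96.5 CPM). Type 1 dendritic cells were at 36.5 and 44.5 CPM and M-MDSC-gated cells at 31.0 and 23.3 CPM. Macrophage-gated cells were at 25.9 and 15.4 CPM, and T cells, used here as background, at 77.2% and 110% of these levels. Over the whole class, the macrophage values of *Mfge8* overlapped with those of T cells and were not separated from background. This does not hold for each macrophage state, since cells with *Gpnmb* had more of it (see the splits by state marker below). The 6 and 0 UMIs of NK cells are read as background. Its partner integrins were measured in macrophage-gated cells with *Itgav* at 80.8 and 77.7 CPM and *Itgb5* at 204 and 186 CPM, while *Itgb3* had 7 and 2 UMIs there and was at 163 and 123 CPM in endothelial cells.

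The share of cells with a UMI was compared after each cell was thinned to 1500 UMIs, which removes the difference in depth between classes. Shallower cells were left out, 159 and 246 of the macrophage-gated cells and 91 and 137 of the T cells. The macrophage-gated cells had median depths of 5178 and 4482.5 UMIs and the T cells, used as background, of 2263 and 2322. *Axl* was seen in 46.4% of 3126 and 43.0% of 3478 macrophage-gated cells, against 5.86% and 5.50% of T cells (79.6%, 73.6%, 10.4% and 8.85% unthinned). *Stab1* was seen in 20.9% and 21.2% of macrophage-gated cells against 0.309% and 0.846% of T cells (49.9%, 44.2%, 0.964% and 1.97% unthinned). *Mertk* was seen in 6.69% and 8.28% against 0.617% and 0.211% (21.4%, 21.8%, 0.482% and 0.164% unthinned). These 3 receptors were above the T cell share in both libraries.

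For *Gas6* the thinned share of macrophage-gated cells was 6.05% (95% exact binomial interval 5.24% to 6.94%) and 3.80% (3.18% to 4.48%), with 0 of 324 and 0 of 473 T cells, which allows shares of up to 0.926% and 0.634% by a limit of 3 cells, and 1.13% and 0.777% by the upper end of the exact binomial interval. Unthinned it was 17.7% and 10.5% of macrophage-gated cells and 0.482% and 0.492% of T cells. In fibroblasts 18.0% of 61 and 43.1% of 58 thinned cells held *Gas6* (29.1% and 45.7% unthinned). *Mfge8* was in 3.42% and 2.13% of thinned macrophage-gated cells and in 3.09% and 4.02% of T cells (9.19%, 5.45%, 5.30% and 4.43% unthinned), so its macrophage share did not exceed background.

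The comparison of the 2 libraries addresses whether tumor macrophages and other cells of *Lmo7*-/- hosts differ in genes for the uptake of dying cells. In macrophage-gated cells *Gas6* was lower in the library labelled *Lmo7*-/- by a factor of 1.58, from 46.6 to 29.5 CPM. *Mfge8* was lower there by a factor of 1.68, at a class level not separated from that of T cells. The 10 macrophage-gated cells with the most *Mfge8* held 20.8% and 18.7% of its UMIs. A counting interval for *Mfge8* does not cover that spread between cells. Receptors differed by less. *Mertk* was 1.14-fold higher, *Axl* 1.10-fold lower and *Stab1* 1.06-fold lower.

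On the log2 scale (library labelled *Lmo7*-/- over *Lmo7*+/+, 95% counting interval), the ratio in macrophage-gated cells was -0.66 for *Gas6* (-0.82 to -0.51) and -0.75 for *Mfge8* (-0.97 to -0.53). The third bridging protein, *Pros1*, was at -0.16 (-0.37 to 0.04). *Mertk* was at 0.19 (0.06 to 0.32), *Axl* at -0.13 (-0.18 to -0.09) and *Stab1* at -0.08 (-0.15 to -0.01), all smaller than the 0.5 used as the fold. The ratio of *Timd4*, 0.58, had an interval from -0.83 to 2.07 and could not be distinguished from 0 at this depth. With a log2 ratio of 0.5 in either direction among genes with at least 20 UMIs, 2 of the 7 members were lower, against 7.67% of 12128 genes, and 1 (*Timd4*) was higher, against 4.82%. *Gas6* and *Mfge8* stood at percentiles 4.02 and 2.98 of all genes tested. The median member was at -0.13 and the median gene at -0.10, and relative to that median the ratio was 0.29 for *Mertk* and 0.02 for *Stab1*. The summed level of the 27 tumor cell markers in macrophage-gated cells was 220 and 180 CPM. It moved with *Mfge8*, and its part in that difference was not tested.

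**Figure D2:**
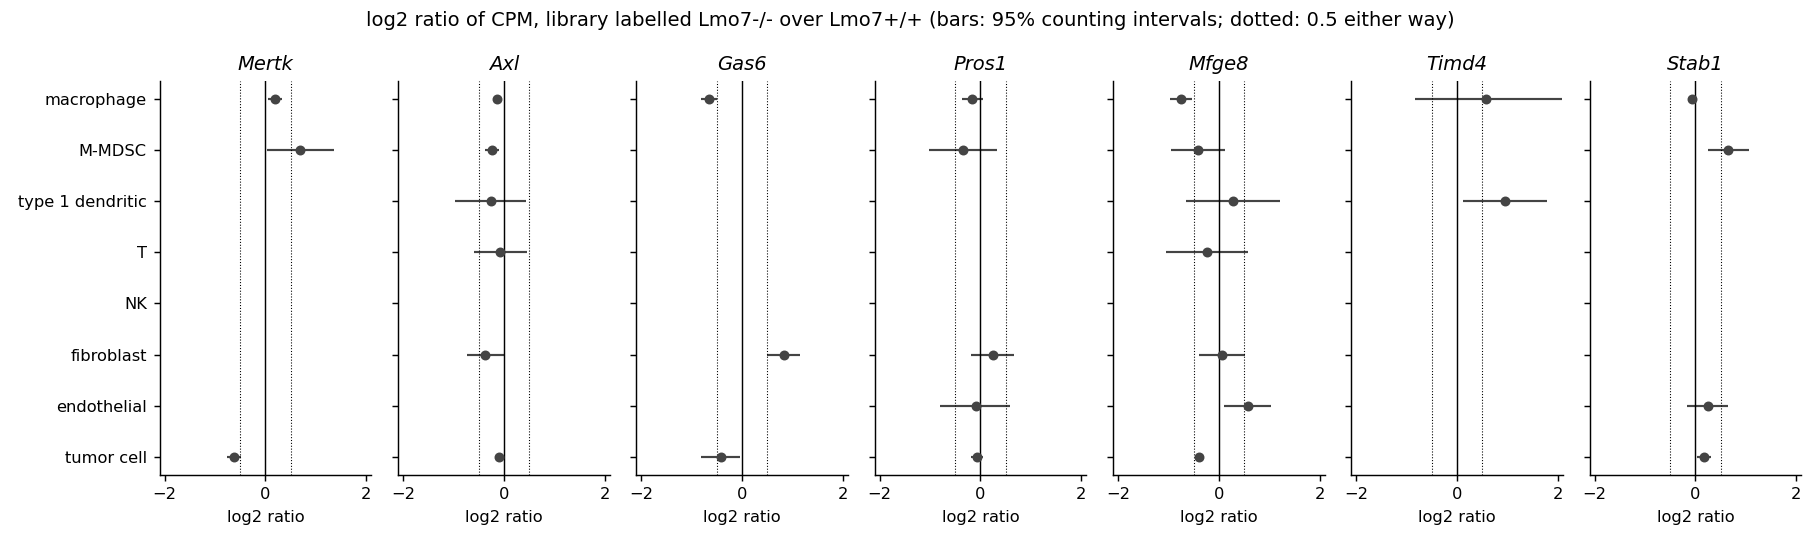
Log2 ratio of CPM, library labelled Lmo7-/- over Lmo7+/+, for each gene (panels) in each cell class (rows), with bars for 95% counting intervals and dotted lines at 0.5 either way. Classes with under 20 UMIs of a gene are left empty. Gas6 was at -0.66 in macrophage-gated cells and 0.82 in fibroblasts, and Mertk at 0.19 in macrophage-gated cells and -0.63 in tumor cells.

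The cluster with the largest share of the macrophage-gated cells differed between the 2 libraries, at 45.1% (*Mgl2* cluster) in the *Lmo7*+/+ library and 46.2% (*Fcgr4* cluster) in the other. Louvain clusters, made without the 7 genes, are named here by their leading genes. The *Mgl2* cluster (led by *Mgl2*, *Cd14*, *Il1r2* and *Il1b*) held 1481 and 975 of these cells, the *Fcgr4* cluster (*Fcgr4*, *Ms4a7*, *Cd72*) 727 and 1721, the *Hspa1a* cluster (*Hspa1a*, *Mmp12*, *Arg1*) 478 and 462, the *Cx3cr1* cluster (*Cx3cr1*, *Fcrls*) 432 and 417, and the *Retnla* cluster (*Retnla*, *Ccl8*, *F13a1*, *Folr2*) 74 and 62. The values of each gene are therefore given within clusters too.

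Within clusters *Gas6* was lower in the library labelled *Lmo7*-/- in the *Mgl2* cluster (40.0 against 20.5 CPM), the *Fcgr4* cluster (31.8 against 23.6), the *Hspa1a* cluster (59.3 against 45.6) and the *Cx3cr1* cluster (51.8 against 33.5), each with an interval below 0. The *Retnla* cluster was the exception, with 273 CPM (119 UMIs) in the *Lmo7*+/+ library and 269 CPM (82 UMIs) in the other. It held 13.9% and 15.1% of all macrophage *Gas6* UMIs in 2.25% and 1.66% of the cells. Without this cluster *Gas6* was at 41.1 and 25.4 CPM. With the 5 clusters weighted equally the log2 ratio was -0.22, against -0.66 over all macrophage-gated cells. That value is a ratio of mean CPM, so the *Retnla* cluster, with the highest *Gas6*, weighs most in it. Cluster by cluster the log2 ratio was -0.97 (*Mgl2*), -0.43 (*Fcgr4*), -0.38 (*Hspa1a*), -0.63 (*Cx3cr1*) and -0.02 (*Retnla*).

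*Mertk* went in opposite directions in the 2 large clusters. It was at 50.5 and 42.4 CPM in the *Mgl2* cluster (log2 ratio -0.25, -0.49 to -0.02) and at 45.5 and 64.6 CPM in the *Fcgr4* cluster (0.51, 0.27 to 0.74). *Axl* was lower in the *Hspa1a* cluster (401 and 310 CPM) and in the *Retnla* cluster (248 and 161 CPM), where it also had its lowest level among the 5 clusters. *Mfge8* was lower in the *Mgl2* cluster, at 29.8 and 16.6 CPM, and had intervals that included 0 in the other 4 clusters, with 10.4 and 9.94 CPM in the *Fcgr4* cluster.

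*Stab1* and *Pros1* shared the *Retnla* cluster with *Gas6*. There *Stab1* was at 415 and 374 CPM, against 138 to 210 CPM in the other 4 clusters and both libraries, and *Pros1* was at 66.5 and 75.5 CPM, against 11.7 to 27.0 CPM. *Timd4* had 5 and 3 of its 8 and 12 macrophage UMIs there. The *Retnla* cluster thus combined the highest *Gas6*, *Stab1* and *Pros1* of the 5 clusters with the lowest *Axl*.

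**Figure D3:**
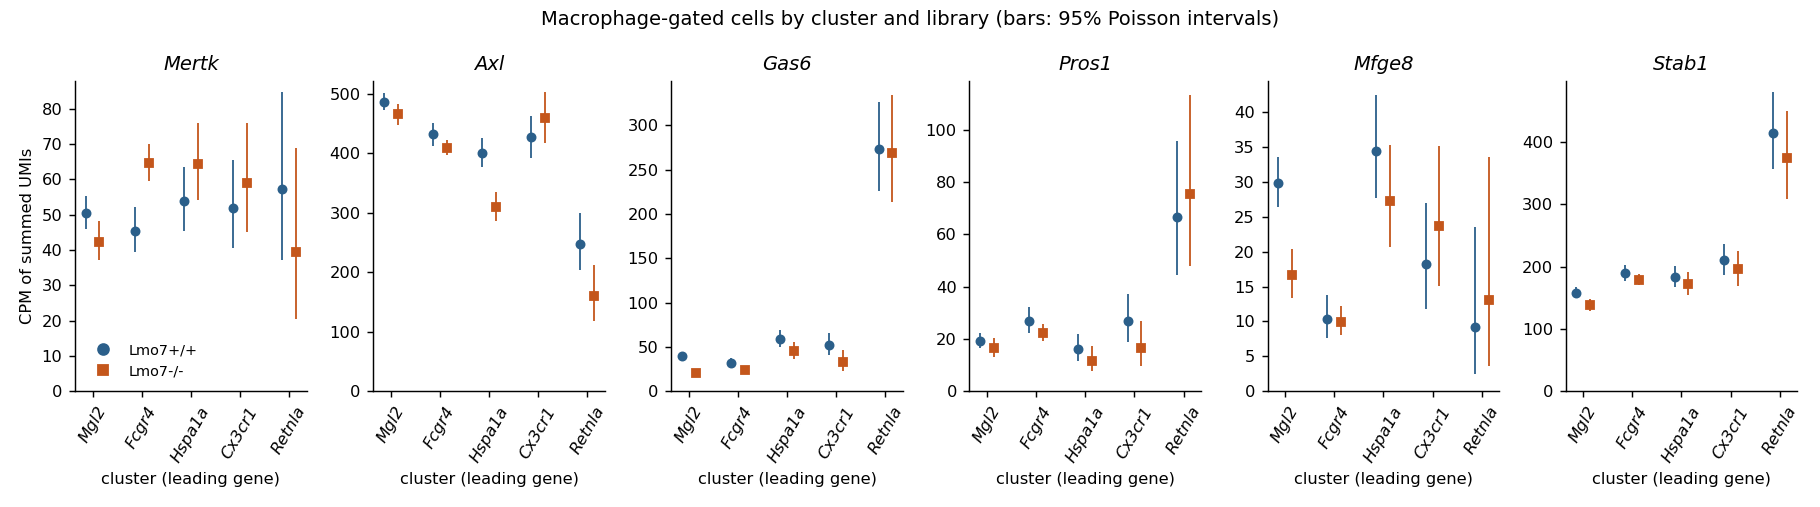
Level of 6 genes (CPM of summed UMIs) in macrophage-gated cells of the 5 clusters with at least 50 such cells in each library, named by the leading gene, with a circle for Lmo7+/+, a square for the library labelled Lmo7-/- and bars for 95% Poisson intervals. Gas6 reached 273 and 269 CPM in the Retnla cluster and lay between 20.5 and 59.3 CPM in the other clusters.

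Splits of the macrophage-gated cells by a UMI of a state marker gave similar orders in both libraries for the genes below. Deeper cells are more often among those with a UMI. Cells with a UMI of *Folr2*, a folate receptor of tissue-resident macrophages (106 and 92 cells), had *Gas6* at 194 and 162 CPM against 40.9 and 25.3 CPM in cells without it, and *Stab1* at 376 and 332 CPM against 170 and 163 CPM. Their *Axl* was lower, at 322 and 330 against 456 and 413 CPM. In the 22 and 18 cells with *Lyve1*, a hyaluronan receptor of perivascular macrophages, *Gas6* was at 381 and 464 CPM.

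*Mrc1*, which encodes the mannose receptor CD206, was found in 1516 and 1556 cells. Their *Gas6* was at 65.9 and 42.7 CPM, against 24.9 and 16.8 CPM in the other cells, so *Gas6* was lower in the library labelled *Lmo7*-/- with and without *Mrc1*. *Stab1* was at 217 and 209 CPM with *Mrc1* and 133 and 129 CPM without. Cells with *Vcam1*, an adhesion molecule, had *Mertk* at 57.9 and 64.9 CPM against 33.8 and 37.7 CPM, and cells with the chemokine gene *Ccl8* had it at 65.9 and 72.2 against 45.7 and 49.5 CPM.

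Cells with *Ly6c2*, a marker of recent monocytes, had less *Gas6* (27.1 and 10.2 CPM against 47.4 and 30.2 CPM) and less *Stab1* (128 and 128 CPM against 179 and 170 CPM). Cells with *Nos2*, the inducible nitric oxide synthase, had less *Axl*, at 350 and 355 against 458 and 421 CPM. *Gpnmb*, a lysosomal glycoprotein of lipid-laden macrophages, went with *Mertk* (64.9 and 89.5 against 48.0 and 54.0 CPM) and with *Mfge8* (66.2 and 34.8 CPM, log2 ratios of 1.58 and 1.32 over cells without it). A split by *H2-Ab1* was of no use, because 26 and 3 cells lacked it.

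**Figure D4:**
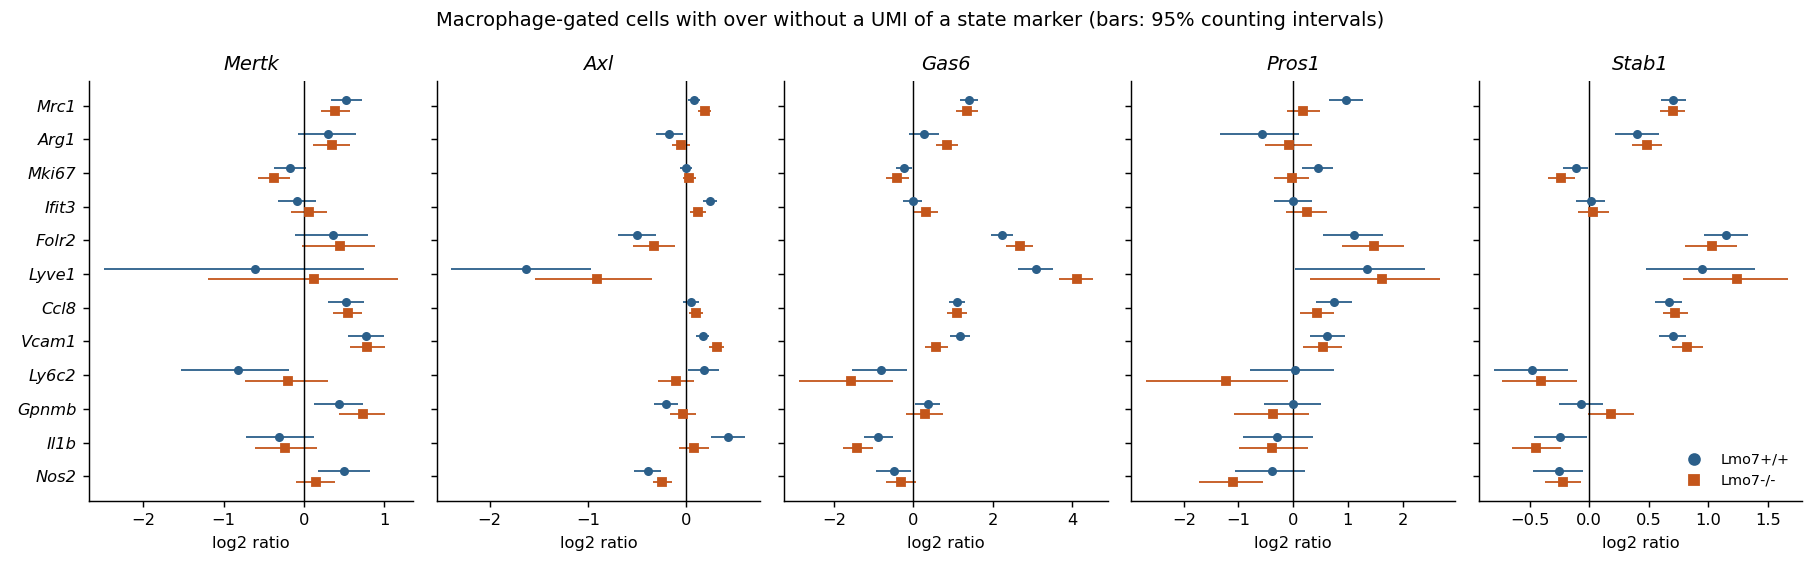
Log2 ratio of CPM between macrophage-gated cells with and without a UMI of each state marker (rows), for 5 genes (panels), with a circle for Lmo7+/+, a square for the library labelled Lmo7-/- and bars for 95% counting intervals. Gas6 was 2.25 and 2.69 higher on the log2 scale with Folr2, and Axl 0.50 and 0.32 lower.

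In tumor cells, *Mertk* was 1.54-fold lower in the library labelled *Lmo7*-/- (log2 ratio -0.63, -0.76 to -0.49), from 1400 UMIs in 5311 cells to 665 UMIs in 3922 cells. It was the single member of the 6 tested in tumor cells that passed the fold, against 6.12% of 13922 genes that were lower and 4.53% that were higher. *Mfge8* followed with a ratio of -0.40 (-0.46 to -0.34) and *Gas6* with -0.43 (-0.81 to -0.05), while *Axl* was at -0.09, *Pros1* at -0.06 and *Stab1* at 0.17. The tumor cell level of *Gas6* (3.14 and 2.34 CPM) overlapped with that of T cells and is read as background. The thinned share of tumor cells with *Mertk* was 3.52% and 2.47% (19.2% and 13.7% unthinned). The median tumor cell depths were 7374 and 7478 UMIs.

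In M-MDSC-gated cells *Mertk* and *Stab1* were higher in the library labelled *Lmo7*-/- and *Axl* was lower. *Mertk* was at 13.9 and 22.4 CPM from 35 and 48 UMIs (log2 ratio 0.68, 0.03 to 1.36) and *Stab1* at 36.6 and 57.3 CPM from 92 and 123 UMIs (0.65, 0.25 to 1.05). These were 2 of the 5 members tested, against 6.99% of 9356 genes that were higher and 10.0% that were lower. *Axl* was at -0.23 (-0.37 to -0.09). The macrophage genes *C1qb* (1682 and 2335 CPM) and *Apoe* (645 and 872 CPM) moved with them, and their part was not tested. The M-MDSC gate allowed macrophage markers, and *C1qb* was at 38.0% and 45.9% of its level in macrophage-gated cells. *Gas6* had 1 UMI in the *Lmo7*+/+ library and 15 UMIs in 7 of 559 cells in the other, with 6 of them in a single cell. The total is under the minimum of 20 UMIs, so the ratio (17.6, log2 interval 1.43 to 9.53) is not read as a difference. *Col1a2*, a fibroblast collagen, was at 13.1 and 36.4 CPM in the same class.

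In fibroblasts *Gas6* was higher in the library labelled *Lmo7*-/-, opposite to macrophage-gated cells, a difference between classes that was not tested. Their log2 ratio was 0.82 (0.50 to 1.15), or 1.77-fold, and *Gas6* was 1 of the 4 members tested, against 13.2% of 5368 genes that were higher and 20.2% that were lower. *Pros1* was at 0.24 (-0.19 to 0.67), *Mfge8* at 0.06 (-0.39 to 0.52) and *Axl* at -0.36 (-0.73 to -0.002). With 10 fibroblasts holding most of the *Gas6*, its counting interval does not cover the spread between cells. Thinned to 1500 UMIs, 11 of 61 and 25 of 58 fibroblasts held *Gas6*. Their exact binomial intervals, 9.36% to 29.98% and 30.2% to 56.8%, only just missed each other. The intervals of the 2 libraries overlapped after thinning to 1000 UMIs (shares of 16.5% and 25.7%) and without thinning (29.1% and 45.7%). Whether the shares were separate thus depended on the thinning. The log2 ratio of *Gas6* stayed between 0.74 and 0.92 under 10 other processing choices.

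Endothelial cells had more *Mfge8* in the library labelled *Lmo7*-/- (77 and 85 UMIs, log2 ratio 0.57, 0.11 to 1.03), 1 of the 3 members tested, where 16.4% of 4831 genes were higher and 16.1% lower. *Stab1* (0.24, -0.17 to 0.65) and *Pros1* (-0.10, -0.79 to 0.59) had intervals that included 0. In type 1 dendritic cells *Timd4* was 1.92-fold higher (log2 ratio 0.94, 0.12 to 1.79), also 1 of 3 members tested, where 10.4% of 5770 genes were higher and 14.7% lower. With a stricter gate, which allowed fewer markers of other lineages, that ratio was -0.29, so its direction depends on the gate. In T cells *Axl* and *Mfge8* were tested and neither passed, where 7.03% of 8992 genes were higher and 11.8% lower, and in NK cells 0 members had 20 UMIs, where 17.4% of 1763 genes were higher and 15.8% lower.

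The genes most like each member across the 16 profiles were found by Pearson r of log2(CPM + 10) among 6728 genes. They were *Nfxl1*, *Prdx1* and *Atp6ap1* for *Mertk* (r of 0.92, 0.89 and 0.87), *Fnip1*, *Pla2g4a* and *Sdc4* for *Axl* (0.94, 0.90 and 0.89), and *Ctsf*, *Gpx3* and *Igf1* for *Gas6* (0.96, 0.95 and 0.95). For *Pros1* they were *Nfia*, *Fndc3b* and *Kdelr1* (0.97, 0.96 and 0.96), for *Mfge8* *Map4k5*, *Hspg2* and *Prkce* (0.98, 0.95 and 0.94), and for *Stab1* *Gdf15*, *Abca1* and *Ncstn* (0.92, 0.90 and 0.90). *Timd4* was most like *Cldn1*, *Sept3* and *Mycl* (0.99, 0.99 and 0.98). These lists depend on the constant added to CPM. With 1 CPM added in place of 10, only *Fnip1* stayed for *Axl* and only *Nfia* for *Pros1*. Only *Map4k5* stayed for *Mfge8* and only *Cldn1* for *Timd4*. *Nfxl1* and *Prdx1* stayed for *Mertk*, *Ctsf* and *Gpx3* for *Gas6*, and *Gdf15* and *Ncstn* for *Stab1*.

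In the wider efferocytosis pathway few genes passed the fold in macrophage-gated cells. Of 81 listed genes 75 had at least 20 UMIs, of which 5 were higher (6.67%) and 2 lower (2.67%) by the fold, against 4.82% and 7.67% of all genes tested. The list's median log2 ratio was 0.05 against -0.10 for all genes. The 5 were the complement genes *C3* (1.06, 50.0 and 104 CPM) and *C4b* (0.53), the scavenger receptor gene *Cd36* (0.67, 82.8 and 132 CPM), *Nr1h3* (0.58), which encodes the sterol sensor LXRα, and *Socs1* (0.73), a brake on cytokine signaling. *Marco* (-0.54) and *Ptk2* (-0.51) were lower, with intervals that reached 0. Among other receptors, *Havcr2* (TIM-3) was at 0.34, *Lrp1* at 0.05, *Itgav* at -0.06 and *Itgb5* at -0.14. Among the list's 10 bridging proteins the median was 0.20, with values from -0.28 (*Anxa1*) to 1.06 (*C3*), whereas *Gas6* was at -0.66. Of these, *C1qa*, *C1qb*, *C1qc* and *Apoe* were also markers of the macrophage gate, as were *Cd14* and *Trem2* among the receptors. The list values are therefore not independent of the gate.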

How the data were processed

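Single-cell 3′ libraries (10x Genomics) were made from FACS-sorted live cells of MC38 tumors, 1 library per host genotype. The authors deposited a matrix of UMI counts per gene and droplet for each library, aligned to mm10. The submitters' processing notes name Cell Ranger 2.1.1, whereas the matrix header gives software version 3.0.0. The counts were used as deposited.

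Droplets under 500 genes or 1000 UMIs, or above 15% of UMIs from mitochondrial genes, were removed. Total UMIs were 98582479 and 80648345 and median UMIs per kept cell 4535.5 and 4304.5. Classes were gated by markers with a UMI, without the 7 genes, and 25.6% and 23.0% of cells stayed ungated. The gates for fibroblasts (*Col1a2* at 8000 CPM or more), tumor cells (below 3000) and NK cells were adjusted after the data were seen. Scrublet marked 2.90% and 2.60% of cells as doublets, which were kept. Counts were summed per class and library and given as CPM with exact Poisson intervals. Ratios carry a Clopper-Pearson interval of the count split, and shares an exact binomial interval. UMIs of a class are not independent between cells, so all intervals cover counting error only. With 1 library per genotype no p-value was computed. A gene passed the fold at a log2 ratio of 0.5 in either direction with at least 20 counts.

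Named genes were the 7 members, the 3 genes most like each, the efferocytosis list genes past the fold plus *Tyro3*, *Itgav*, *Itgb3*, *Itgb5*, *Stab2*, *Havcr2* and *Lrp1*, *Lmo7* and the state markers. Genes given as checks (*C1qb*, *Apoe*, *Col1a2*, *Tmem255b*, *Nt5dc2*) fall outside this rule and were chosen after their values were seen. The members, gene lists and markers were chosen with earlier results of these data known. Likeness was computed among genes that reached 50 CPM in a profile. Python 3.11.15, scanpy 1.11.5 and scipy 1.17.1 were used, with TMM factors from edgeR 4.0.16 in R 4.3.3 as an alternative. Scripts were tested on simulated counts. Promoters are from RefSeq, and all 7 genes matched.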

Additional observations from a re-analysis of the deposited data

Results flagged for a closer look

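For 4 genes the library labelled *Lmo7*-/- was higher in some cell classes and lower in others, with counting intervals that excluded 0 in both directions. With 1 library per genotype the difference between classes was not tested. *Gas6* had log2 ratios of 0.82 in fibroblasts, -0.66 in macrophage-gated cells and -0.43 in tumor cells, where its level (3.14 and 2.34 CPM) overlapped with that of T cells and is read as background. *Mertk* was at 0.19 in macrophage-gated cells and 0.68 in M-MDSC-gated cells but at -0.63 in tumor cells. *Mfge8* was at 0.57 in endothelial cells, -0.75 in macrophage-gated cells and -0.40 in tumor cells. Over all macrophage-gated cells the *Mfge8* level was not separated from background, with T cells at 77.2% and 110% of it. Its ratio there was -0.17 with clusters weighted equally. *Stab1* was at 0.65 in M-MDSC-gated cells and 0.17 in tumor cells, against -0.078 in macrophage-gated cells, where the sign depends on the processing.

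Signal also appeared in small classes that entered no comparison, above the level in T cells. In 26 and 20 mature dendritic cells *Timd4* was at 90.0 and 48.2 CPM, from 9 and 3 UMIs. In 15 and 4 pericytes *Mfge8* was at 667 and 927 CPM, from 35 and 16 UMIs. *Pros1* was there at 114 and 116 CPM from 6 and 2 UMIs, the second below the level of 3 UMIs (174 CPM). In 6 and 18 mast cells or basophils *Mfge8* was at 180 and 120 CPM, from 5 and 6 UMIs.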

How the results depend on the processing

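The log2 ratio of *Gas6* in macrophage-gated cells ranged from -0.70 to -0.22 over 11 alternatives, below 0 in each. Weighting 5 clusters equally, by the mean of their CPM, gave -0.22 for *Gas6*, 0.059 for *Mertk* and -0.17 for *Mfge8*. For *Gas6* the *Retnla* cluster weighs most in that mean. With Louvain clusters at resolution 0.5 *Mfge8* was at -0.52. TMM scaling, which shifted this class by 0.096, gave -0.037 for *Axl* and reversed *Stab1* to 0.018, as a strict gate did to 0.048. A strict gate turned *Timd4* in type 1 dendritic cells to -0.29. Splits made after thinning reversed 5 values of the *Lmo7*+/+ and *Lmo7*-/- libraries: *Axl* by *Mrc1* (-0.038) and *Ifit3* (-0.00149), *Stab1* by *Mki67* (0.023), *Gas6* by *Gpnmb* (-0.070) and *Mfge8* by *Nos2* (-0.36). The count of higher members fell to 0 with a strict gate, a strict filter, at least 50 counts or without shared barcodes. Genes higher were 7.82% with at least 1 count, and genes lower 5.04% with TMM. Higher pathway genes numbered 8 with TMM, and lower ones 0 with TMM or a strict gate, 4 with at least 1 count, and 1 with a lenient filter, Louvain resolution 1.0, without shared barcodes or without the 10 most abundant genes. The causes were not tested. Levels stayed within their interval in 757 of 868 recomputed values, shares of cells (thinned to 1000 UMIs or not at all) in 25 of 56 and state splits made after thinning in 80 of 147. At resolution 0.5 no cluster could be named type 1 dendritic or NK. Resolution 1.0, equal weighting and the removal of shared barcodes were chosen after seeing the data. No paired analysis was possible because each genotype had 1 library, and no replicate could be left out.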
